A study of Mus musculus with 17 samples.

Results

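Absorbing cells of the small intestine take up the fatty acids and monoglycerides of a meal, rebuild them into triglyceride and send them out as chylomicrons. This account follows 10 genes of that route in mouse pups: the apolipoproteins Apoa1, Apoa4, Apob and Apoc3, the loading protein Mttp, the fatty acid carriers Fabp1 and Fabp2, the fatty acid receptor Cd36, and the acyltransferases Mogat2 and Dgat1. They were chosen by name for their roles, with earlier results of these data known. All 10 were among the 53278 gene symbols of the table and among the 15066 that had a TPM (a level per gene length, scaled to a fixed total per library) of at least 1 in at least 2 libraries.

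RNA was measured in 17 libraries of sorted EpCAM+ CD45- Ter119- small-intestinal epithelial cells from Igha -/+ pups on a C57BL/6 background. The pups were nursed by an IgA -/- dam, whose milk lacks IgA (IgA-null-nursed pups), or by a C57BL/6 dam (B6-nursed pups), and were sampled on days of life 14, 24 and 42. Each of the 6 groups had 3 libraries, except day 24 in B6-nursed pups, which had 2. All pups carried 1 null and 1 working Igha allele, so the dams differ in maternal IgA and the pups do not differ in their labelled genotype. The number of dams and litters is not given, so the tests weigh the spread between libraries, which may be technical. The labels carry a date, shared by both dams at day 42 and not at the younger ages, where date and dam cannot be told apart. They also open with a letter, F in every library of the IgA-null dam and M in every library of the B6 dam. Its meaning is not given here, and at all ages letter and dam cannot be told apart. Of the comparisons of ages, only day 42 with day 24 in IgA-null-nursed pups lies within 1 date, and in the others date and age cannot be told apart. The whole epithelium was sorted, with no statement of segment, and in such bulk samples fewer cells of a type and less RNA per cell cannot be told apart.

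In the enterocyte, monoglycerides are re-esterified first by Mogat2 and the last acyl chain is added by Dgat1 or Dgat2. Mttp then loads triglyceride onto Apob, the structural protein of the chylomicron, and Apoa1, Apoa4 and Apoc3 ride on the particle's surface. Milk is rich in fat, and mouse pups change from milk to solid food in the weeks between the first and the last age sampled here.

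Estimated depth ran from 8926993 to 18897602 reads per library. A single short RNA gene, Gm23935, held 40.2% to 61.9% of all TPM and the mitochondrial genes 13.7% to 34.6%, so the TPM of nearly every other gene moves when these do. Median-of-ratios size factors ranged from 0.48 to 0.72 in the IgA-null libraries at day 24 and from 1.41 to 1.84 in those at day 14. Results are therefore given on the TPM as deposited and again after division by these factors, called scaled. Every enterocyte marker was present in every library, with Epcam at 153 to 500 TPM and Vil1, the brush-border protein villin, at 88.1 to 289 TPM. The marker sums of endothelium (0.0829 to 0.454 TPM), fibroblasts (0 to 0.159 TPM) and adipocytes (0 to 0.245 TPM) were near 0, those of leukocytes reached 8.11 TPM, and that of hepatocytes was 0.961 to 27.8 TPM, with Alb at most 0.165 TPM. Pancreas markers summed to 0.321 to 2.07 TPM and erythroid markers to 0.35 to 28.9 TPM, the highest in a day 24 library of IgA-null-nursed pups.

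The 10 genes lie on 7 chromosomes (coordinates in GENCODE M21, GRCm38, equal to mm10). Apoa1 (chr9:46228580-46230466, plus strand), Apoc3 (chr9:46232933-46235636, minus strand) and Apoa4 (chr9:46240696-46243459, plus strand) are neighbours in a cluster that Apoa5 (chr9:46268633-46271919, plus strand) completes. Apob is at chr12:7977648-8016835 on the plus strand. Mttp (chr3:138089854-138144968, minus strand) and Fabp2 (chr3:122895072-122899506, plus strand) share chromosome 3. Fabp1 is at chr6:71199827-71205023 (plus strand), Cd36 at chr5:17781690-17888801 (minus strand), Mogat2 at chr7:99219084-99238619 (minus strand) and Dgat1 at chr15:76502015-76511953 (minus strand). All are protein-coding, and the values are over whole genes, so they do not separate isoforms.

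Promoter windows of 300 bases, from before the RefSeq start to 50 bases after it (GRCm38.p6), matched 7 of the 10 genes by symbol. A search on both strands for CAAAGNNCA, a core of sites bound by HNF4-type nuclear receptors, matched Apoa4, Apob and Fabp2, against 6.36% of 32851 RefSeq promoters. AGGTCA, a nuclear receptor motif, matched Cd36 and Fabp1 (16.3% of all promoters), TATAAA matched Apob and Fabp1 (13.6%), and AGATAA, bound by factors such as Gata4, matched none of the 7 (11.2%). These are matches of letters and not sites of binding. The Apoa1, Fabp1, Mttp and Cd36 windows have no CAAAGNNCA match, and any part of the match in the levels of these genes was not tested. Shown are the windows of the 3 genes with the match and that of Apoa1, from the same cluster as Apoa4. The windows are chr9:46240594-46240893 for Apoa4, chr9:46228380-46228679 for Apoa1, chr12:7977427-7977726 for Apob and chr3:122894822-122895121 for Fabp2, all on the plus strand, 5′ to 3′, with the match in capitals (read on the other strand in Apob and Fabp2).
Apoa4: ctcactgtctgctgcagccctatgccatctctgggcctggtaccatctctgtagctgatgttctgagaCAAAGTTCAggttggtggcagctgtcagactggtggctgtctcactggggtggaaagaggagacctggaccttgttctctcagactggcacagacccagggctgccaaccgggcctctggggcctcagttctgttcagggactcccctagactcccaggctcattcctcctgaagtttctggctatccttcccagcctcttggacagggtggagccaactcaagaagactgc
Apoa1: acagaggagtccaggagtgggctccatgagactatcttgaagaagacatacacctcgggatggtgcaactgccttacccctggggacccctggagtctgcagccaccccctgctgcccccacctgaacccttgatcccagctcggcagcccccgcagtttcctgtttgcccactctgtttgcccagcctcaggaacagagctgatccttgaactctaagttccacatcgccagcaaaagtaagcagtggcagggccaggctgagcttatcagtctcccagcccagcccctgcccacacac
Apob: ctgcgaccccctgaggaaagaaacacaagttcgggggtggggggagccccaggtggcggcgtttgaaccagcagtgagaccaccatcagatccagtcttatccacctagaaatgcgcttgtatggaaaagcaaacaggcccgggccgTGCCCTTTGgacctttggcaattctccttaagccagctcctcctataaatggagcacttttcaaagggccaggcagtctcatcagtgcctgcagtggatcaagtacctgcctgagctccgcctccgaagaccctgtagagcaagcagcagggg
Fabp2: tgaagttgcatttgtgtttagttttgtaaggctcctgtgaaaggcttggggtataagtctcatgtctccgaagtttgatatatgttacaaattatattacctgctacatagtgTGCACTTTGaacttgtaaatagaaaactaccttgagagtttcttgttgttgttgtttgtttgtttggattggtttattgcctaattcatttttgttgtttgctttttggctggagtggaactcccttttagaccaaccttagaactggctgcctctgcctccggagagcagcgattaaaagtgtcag

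In the Apoa4 window the match begins 182 bases before the RefSeq start, in the Apob window 103 bases and in the Fabp2 window 137 bases. The GENCODE gene start of Apoa4 lies inside its window, upstream of the RefSeq start.

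The surface apolipoproteins had the widest range of the 10 genes. Apoa4, which the small intestine makes and secretes on chylomicrons, ran from 24.7 to 4419 TPM over the 17 libraries, a 179-fold range. At day 14 the libraries held 2493, 984 and 2249 TPM in IgA-null-nursed pups and 3821, 4419 and 1300 TPM in B6-nursed pups. At day 24 they held 565, 211 and 176 TPM in IgA-null-nursed pups and 86.6 and 1247 TPM in B6-nursed pups. At day 42 they held 32.1, 94.6 and 27.8 TPM in IgA-null-nursed pups and 447, 24.7 and 64.7 TPM in B6-nursed pups. Every day 42 library was below every day 14 library, while the dams overlapped at each age.

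Apoa4 fell between day 42 and day 14 in pups of both dams. The log2 fold change, on the log2(TPM + 1) scale used throughout, was -5.30 ± 0.98 (SE, limma, adjusted p = 0.00135) in IgA-null-nursed pups and -4.94 ± 0.98 (adjusted p = 0.00379) in B6-nursed pups. Leaving out any single library left both calls in place on the deposited TPM. After scaling the values were -4.66 (adjusted p = 0.0138, limma) and -4.71 (adjusted p = 0.0136). The scaled call was lost without IgA-null dam day 42 replicate 1 or 3 (adjusted p = 0.0553 and 0.0506), and in B6-nursed pups without day 14 replicate 1 or 2 or day 42 replicate 2 or 3 (adjusted p of 0.0536 to 0.0626).

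Apoc3, an apolipoprotein that slows the clearance of triglyceride-rich particles, followed with a 156-fold range. It had 71.8, 34.3 and 77.1 TPM at day 14 in IgA-null-nursed pups and 144, 195 and 51.3 TPM in B6-nursed pups. On day 42 it had 2.99, 6.54 and 1.25 TPM in IgA-null-nursed pups and 29.3, 1.80 and 8.01 TPM in B6-nursed pups. The day 14 and day 42 libraries of a dam did not overlap. Apoc3 fell by 3.84 on the log2 scale between day 42 and day 14 in IgA-null-nursed pups (adjusted p = 0.003, limma; scaled -3.21, adjusted p = 0.0363). With the B6 dam it fell by 3.64 (adjusted p = 0.00848, limma; scaled -3.39, adjusted p = 0.0311), and without B6 dam day 14 replicate 2 its adjusted p was 0.0506. The scaled call was lost in IgA-null-nursed pups without any 1 of the 6 compared libraries, and in B6-nursed pups without the same 4 libraries as for Apoa4.

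Apoa1, the main protein of high-density lipoprotein, which the intestine also makes, ranged less, over 37.5-fold. It had 1905, 928 and 1844 TPM at day 14 in IgA-null-nursed pups and 2468, 3122 and 888 TPM in B6-nursed pups. At day 42 it had 113, 239 and 93.9 TPM in IgA-null-nursed pups, all below that dam's day 14 libraries. In B6-nursed pups the day 42 libraries held 1177, 83.2 and 197 TPM, and the first of them lay above the lowest day 14 library. Apoa1 fell by 3.43 on the log2 scale in IgA-null-nursed pups (adjusted p = 0.00825, limma), but after scaling the value was -2.80 with an adjusted p of 0.0784. Among B6-nursed pups its log2 fold change was -2.82 (adjusted p = 0.0547), short of the threshold.

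**Figure D1:**
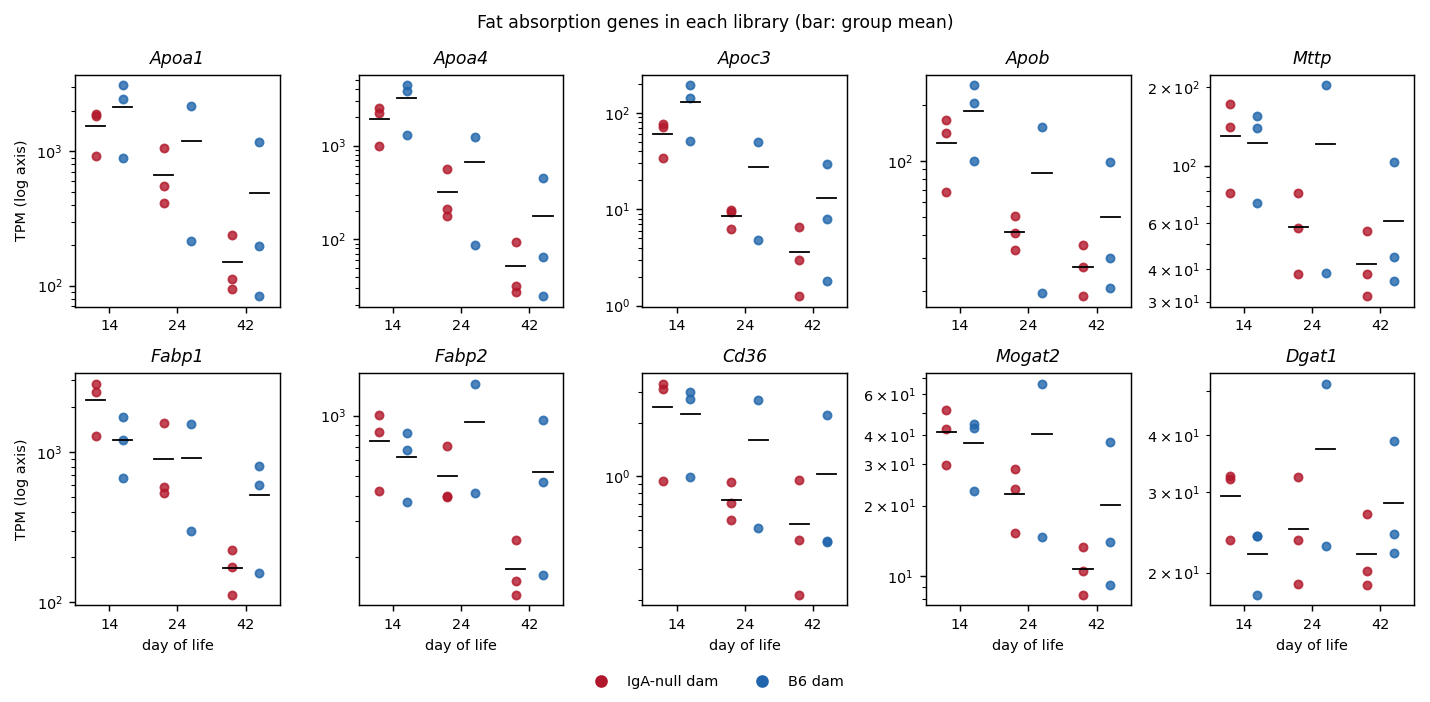
TPM of the 10 genes (y axis, logarithmic) against day of life (x axis). Each point is a library, in IgA-null-nursed pups at the left and the B6 dam at the right of each age, and bars are group means. The day 14 libraries of Apoa4 (984 to 4419 TPM) sit above all day 42 libraries (24.7 to 447 TPM), while Dgat1 stays between 17.9 and 51.8 TPM at every age.

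Apob and Mttp, the pair that forms the particle itself, had ranges of 13.6-fold and 6.47-fold. Apob had a median of 153 TPM at day 14 (68.1 to 255), 41.2 TPM at day 24 (19.6 to 152) and 28.5 TPM at day 42 (18.8 to 98.9) over both dams. Mttp had 140 TPM at day 14 (72.0 to 172), 57.5 TPM at day 24 (38.3 to 204) and 41.3 TPM at day 42 (31.5 to 103). Both fell between day 42 and day 14 in IgA-null-nursed pups, Apob with a log2 fold change of -2.12 (adjusted p = 0.0186, limma) and Mttp with -1.58 (adjusted p = 0.0295, limma). Neither passed after scaling, where the log2 fold changes were -1.49 and -0.95 (adjusted p = 0.211 and 0.341). With the B6 dam the log2 fold changes were -2.09 for Apob (95% interval -3.45 to -0.74, adjusted p = 0.0519) and -1.06 for Mttp (-2.20 to 0.07, adjusted p = 0.255).

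The 2 carriers were, with Apoa1 and Apoa4, the most abundant of the 10 by mean TPM in every group. Fabp1, the liver-type fatty acid-binding protein, had 2513, 1279 and 2844 TPM at day 14 in IgA-null-nursed pups and 1203, 1709 and 674 TPM in B6-nursed pups. At day 24 it had 1562, 535 and 581 TPM in IgA-null-nursed pups and 298 and 1531 TPM in B6-nursed pups. On day 42 it had 171, 221 and 112 TPM in IgA-null-nursed pups and 807, 156 and 598 TPM in B6-nursed pups. With the IgA-null dam the ages 14 and 42 were far apart and the ages 24 and 42 did not overlap either, while in B6-nursed pups they overlapped.

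Fabp1 fell in IgA-null-nursed pups between day 42 and day 14 (-3.68, adjusted p = 0.00105, limma; scaled -3.05, adjusted p = 0.0131). It also fell between day 42 and day 24 (-2.27, adjusted p = 0.0124; scaled -3.14, adjusted p = 0.0419). The first scaled call was lost without IgA-null dam day 42 replicate 3, and the second without any 1 of its 6 libraries. In B6-nursed pups the day 42 over day 14 value was -1.40 (95% interval -2.78 to -0.01, adjusted p = 0.219). The test of a dam effect that differs between ages had an adjusted p of 0.144 for Fabp1, so the dams were not shown to differ in its course. Without B6 dam day 24 replicate 2 that adjusted p was 0.0405, with the lone library left in its group assumed to vary like the others.

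Fabp2, the intestinal-type fatty acid-binding protein, had 1004, 422 and 829 TPM at day 14 in IgA-null-nursed pups and 678, 822 and 374 TPM in B6-nursed pups. At day 42 it had 151, 240 and 129 TPM in IgA-null-nursed pups and 949, 162 and 471 TPM in B6-nursed pups. The IgA-null libraries of the ages were apart and the B6 libraries were not. Fabp2 fell between day 42 and day 14 in IgA-null-nursed pups (-2.07, adjusted p = 0.0129, limma; scaled -1.44, adjusted p = 0.163), and its value in B6-nursed pups was -0.51 (95% interval -1.73 to 0.72).

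Cd36, which binds long-chain fatty acids at the brush border, was the lowest of the 10 at every age. Its median was 2.86 TPM at day 14 (0.941 to 3.32), 0.709 TPM at day 24 (0.511 to 2.70) and 0.434 TPM at day 42 (0.214 to 2.23). These values rest on 17 to 236 reads per library. Cd36 fell between day 42 and day 14 in IgA-null-nursed pups (-1.11, adjusted p = 0.0371, limma), with a scaled value of -0.69 (adjusted p = 0.342).

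Mogat2 and Dgat1 are the acyltransferases of the set. Mogat2, which makes diglyceride from monoglyceride, had 51.1, 29.8 and 42.5 TPM at day 14 in IgA-null-nursed pups and 44.6, 43.1 and 23.1 TPM in B6-nursed pups. On day 42 it had 10.5, 13.2 and 8.30 TPM in IgA-null-nursed pups and 37.4, 9.13 and 14.0 TPM in B6-nursed pups. It fell in IgA-null-nursed pups (-1.84, adjusted p = 0.0116, limma; scaled -1.22, adjusted p = 0.202) and had a value of -1.02 in B6-nursed pups (adjusted p = 0.246).

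Dgat1, which completes the triglyceride, had 32.5, 23.6 and 32.0 TPM at day 14 in IgA-null-nursed pups and 24.02, 24.06 and 17.88 TPM in B6-nursed pups. At day 42 it had 20.1, 26.9 and 18.8 TPM in IgA-null-nursed pups and 38.81, 22.07 and 24.28 TPM in B6-nursed pups. The ages overlapped in pups of either dam. Its range over all libraries was 2.90-fold, the narrowest of the 10. The log2 fold change between day 42 and day 14 was -0.41 (95% interval -1.04 to 0.23) in IgA-null-nursed pups and 0.32 (-0.31 to 0.96) in B6-nursed pups. After scaling it was 0.20 (-0.64 to 1.04) and 0.55 (-0.29 to 1.39), so in IgA-null-nursed pups its direction turned with the scaling.

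Comparing day 42 with day 14, 9 of the 10 genes fell in IgA-null-nursed pups, all but Dgat1, against 38.9% of all genes tested. After scaling 3 fell, Apoa4, Apoc3 and Fabp1, against 8.09% of genes. That count was 0 without IgA-null dam day 42 replicate 3, 1 without day 42 replicate 1 and 2 without any other of the 6 libraries. The median log2 fold change of the 10 was -2.09 against -0.48 over all genes tested, and -1.46 against -0.02 after scaling. The libraries of the ages did not overlap for 8 of them, and the share of all genes without overlap was not taken. Among B6-nursed pups 2 fell, Apoa4 and Apoc3, against 6.33% of genes, and the same 2 after scaling (6.6%), with a median of -1.23 against -0.17 over all genes. The scaled count was 0 without B6 dam day 14 replicate 1 or 2 or day 42 replicate 2 or 3, and 4 without day 42 replicate 1. The deposited count in IgA-null-nursed pups was 5 without IgA-null dam day 42 replicate 3, day 14 replicate 1 or day 14 replicate 3. In B6-nursed pups it was 1 without B6 dam day 14 replicate 2, and 4 without day 14 replicate 3 or day 42 replicate 1, with Apoa1 and Apob added.

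The sum of 8 markers of the proximal small intestine moved with these falls. It was 34.7 to 64.1 TPM at day 42 and 101 to 227 TPM at day 14 in IgA-null-nursed pups, and 40.7 to 134 TPM and 115 to 241 TPM in B6-nursed pups. The sum of 10 distal markers was 149 to 177 TPM at day 42 and 107 to 158 TPM at day 14 in IgA-null-nursed pups, and 151 to 426 TPM and 70.1 to 169 TPM in B6-nursed pups. The proximal list holds Lct, the milk-sugar enzyme lactase, which is also an enterocyte marker. The sum of 7 enterocyte markers overlapped between the ages. It was 736 to 923 TPM at day 42 and 805 to 1306 TPM at day 14 in IgA-null-nursed pups. In B6-nursed pups it was 790 to 1250 TPM and 879 to 1135 TPM. Hepatocyte markers summed to 3.82 to 5.58 TPM at day 42 and 8.11 to 13.5 TPM at day 14 in IgA-null-nursed pups, and to 2.49 to 4.53 TPM and 10.8 to 27.8 TPM in B6-nursed pups. Tuft cell markers moved the other way, with 25.01 to 65.63 TPM at day 42 and 9.60 to 13.6 TPM at day 14 in IgA-null-nursed pups, and 11.8 to 35.3 TPM and 1.85 to 2.20 TPM in B6-nursed pups. Goblet markers summed to 1431 to 1872 TPM at day 42 and 1537 to 2879 TPM at day 14 in IgA-null-nursed pups, and to 1567 to 2319 TPM and 336 to 495 TPM in B6-nursed pups, where the ages did not overlap. The part of all these markers in the falls was not tested.

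**Figure D2:**
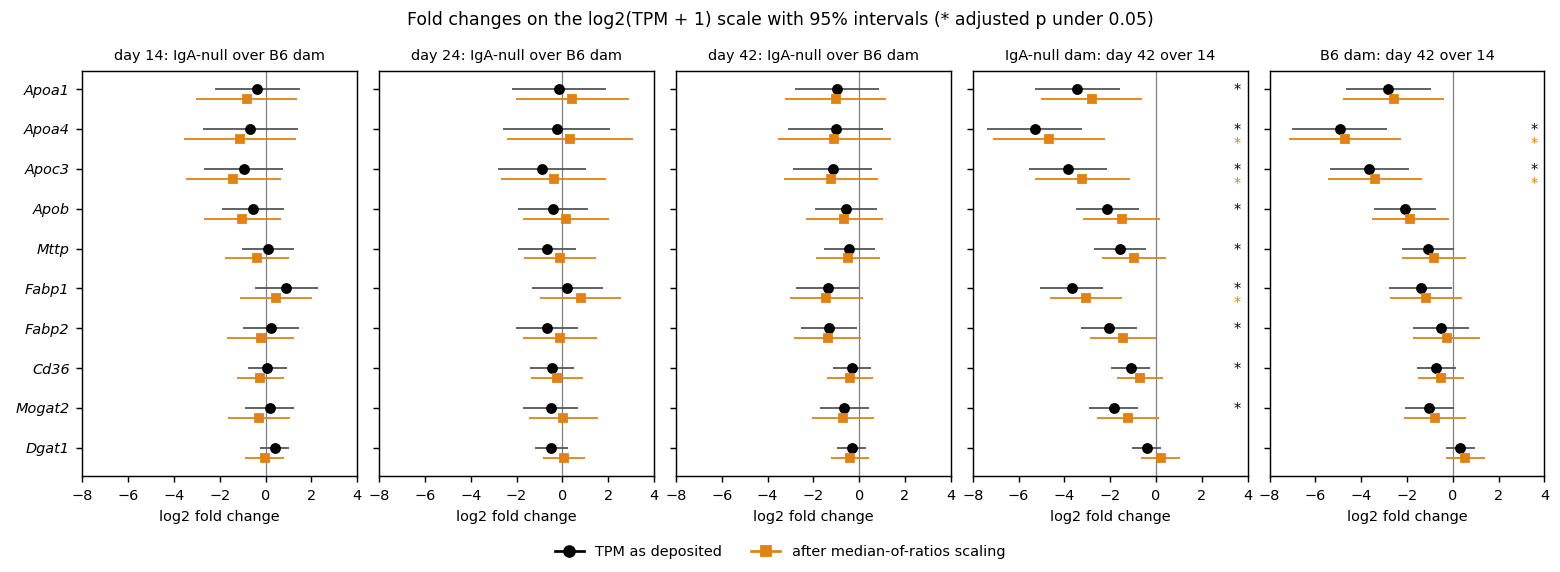
Log2 fold changes (x axis) of the 10 genes (rows) in 5 comparisons, with 95% intervals, from TPM as deposited (circles) and after scaling (squares). Asterisks mark an adjusted p under 0.05, which no gene has between the dams and which Apoa4 and Apoc3 have between day 42 and day 14 with either dam and on both scales.

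The step between day 24 and day 14 depended on scaling. With the IgA-null dam 4 genes fell, Apoa4 (-2.67), Apoc3 (-2.65), Apob (-1.49) and Cd36 (-0.91), with adjusted p of 0.00662 to 0.0436 (limma), but 82.9% of all genes fell in that comparison and the median gene had -1.02. Apoc3 alone passed without IgA-null dam day 24 replicate 2 or 3 or day 14 replicate 1 or 3. After scaling none of these passed, and Dgat1 rose by 1.20 (adjusted p = 0.04999, limma), against 8.35% of genes that rose. That call was lost without any 1 of the 6 compared libraries. On the deposited TPM the value of Dgat1 was -0.24 (95% interval -0.88 to 0.39), so its direction turned with the scaling. With the B6 dam 0 of 10 passed, against 6.99% of genes. There 3 of the 10 had an unadjusted p under 0.05, 4035 genes of 15066 did, and limma-voom on estimated reads also called 0. Without B6 dam day 24 replicate 2, Apoa4, Apob and Apoc3 passed, and without replicate 1 of that group Dgat1 did (adjusted p = 0.0224, limma).

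Across the later step, between day 42 and day 24 in IgA-null-nursed pups, Apoa1 (-2.18), Apoa4 (-2.62), Fabp1 (-2.27) and Fabp2 (-1.52) fell (adjusted p of 0.0124 to 0.0486, limma), against 0.863% of genes. The median gene had 0.53 in that comparison, so these 4 ran against the general shift, and the 10 genes had a median of -1.09. Fabp1 alone passed when any library of these groups other than IgA-null dam day 42 replicate 2 was left out. After scaling the median of the 10 was -1.90 and of all genes 0.01, all 10 values were negative, and Fabp1 passed, against 1.14% of genes. The scaled count was 0 when any 1 of these 6 libraries was left out. In B6-nursed pups 0 of 10 passed (0.00664% of genes fell), with 0 members and 565 genes at an unadjusted p under 0.05, and 0 members by limma-voom.

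Between the dams, none of the 10 genes passed the test at any age. At day 14, 0 of 10 passed, against 8.68% of genes, and 0 after scaling, against 2.97%. At day 24, 0 of 10 passed, against 0.0265% of genes, and at day 42, 0 of 10 passed, against 0% of genes. The count of the 10 at an unadjusted p under 0.05 was 0, 0 and 1 at days 14, 24 and 42 by limma, the last being Fabp2. Of all 15066 genes, 4817, 4659 and 174 had such a p at these ages. Limma-voom called 0 of the 10 at each age. The test of a dam effect that differs between ages called 0 of 10, against 1.75% of genes, with 0 of 10 and 6075 genes at an unadjusted p under 0.05. Libraries of the dams overlapped for all 10 genes at all 3 ages, and the share of all genes that overlapped was not taken.

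The intervals leave room for sizeable differences. At day 14 the log2 fold change of IgA-null over B6 dam was -0.66 for Apoa4 (95% interval -2.74 to 1.42), -0.96 for Apoc3 (-2.68 to 0.76) and 0.91 for Fabp1 (-0.48 to 2.29). Dgat1 had the narrowest interval, 0.40 (-0.24 to 1.04). After scaling these were -1.12 (-3.58 to 1.33) for Apoa4, -1.41 for Apoc3, 0.45 for Fabp1 and -0.04 (-0.88 to 0.80) for Dgat1. The signs turned with the scaling, since 6 of the 10 values were positive as deposited and 1 after scaling at day 14, and 1 and 6 at day 24. At day 42 all 10 values were negative, with a median of -0.81 against 0.03 over all genes. Fabp1 had -1.38 (-2.76 to 0.01) and Fabp2 -1.31 (-2.54 to -0.09), both with an adjusted p of 1. Without B6 dam day 42 replicate 1 and B6 dam day 24 replicate 2, a choice made after the values were seen, the day 42 median was -0.03. Sums of goblet markers were 1537 to 2879 TPM in IgA-null-nursed pups and 336 to 495 TPM in B6-nursed pups at day 14, and those of enteroendocrine markers 1032 to 1520 TPM and 159 to 208 TPM. The part of these cells in the day 14 values was not tested.

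Within groups the 10 genes moved together on the TPM as deposited. B6 dam day 24 replicate 2 was the higher of its pair for all 10, and B6 dam day 42 replicate 1 was the highest of its 3 for all 10. IgA-null dam day 42 replicate 2 was highest for all 10, IgA-null dam day 24 replicate 1 for 9, and B6 dam day 14 replicate 3 and IgA-null dam day 14 replicate 2 were lowest for all 10. This was not particular to the 10 in every group. IgA-null dam day 14 replicate 2 was lowest also for Epcam, Cdh1 and Olfm4 and in size factor (1.41). IgA-null dam day 24 replicate 1 was highest also for Cdh1 and Olfm4 and in size factor (0.72). In B6 dam day 14 replicate 3, Cdh1 and Olfm4 were instead highest, while Vil1, Krt20, Alpi, Lct and Epcam were lowest. The summed TPM of the 10 was 1115 and 6929 at day 24 in B6-nursed pups, and 3688, 516 and 1451 at day 42 in B6-nursed pups. Those 2 high B6 libraries were above the others of their groups for all 10 genes, but not for every gene of fat handling, since Plin2, Acsl3 and Plagl2 were lower in them.

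The same libraries were high in 5 of the 7 enterocyte markers, all but Epcam and Cdh1. B6 dam day 24 replicate 2 had 289 TPM of Vil1 against 130 TPM in replicate 1, 476 against 143 TPM of Krt20, a keratin of villus cells, and 243 against 45.9 TPM of Sis, sucrase-isomaltase. It had 274 against 898 TPM of Olfm4, a crypt stem cell marker. B6 dam day 42 replicate 1 had 192 TPM of Vil1 and 457 TPM of Olfm4, against 97.6 and 158 TPM and 667 and 874 TPM in the other libraries of its group. All 5 markers Vil1, Krt20, Sis, Alpi and Lct were highest, and all 4 stem markers lowest, in both libraries. Cdh1 was also lowest in both, at 105 against 147 TPM at day 24 and 121 against 154 and 174 TPM at day 42. Epcam had 370.6 against 389.8 TPM at day 24 and 390.5 against 382.1 and 446.2 TPM at day 42. Vil1, Krt20, Sis, Alpi and Lct were also highest in IgA-null dam day 24 replicate 1 and day 42 replicate 2. They and the 10 genes were lowest in IgA-null dam day 14 replicate 2 and day 42 replicate 3 and B6 dam day 42 replicate 2. In B6 dam day 14 replicate 2, highest for 9 of the 10 genes, Sis was instead lowest. The part of these markers in the levels of the 10 genes was not tested.

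Leaving out these 2 libraries, a choice made after the values were seen, moved the B6 results. Between day 42 and day 14 in B6-nursed pups, 6 of the 10 then fell (Apoa1, Apoa4, Apob, Apoc3, Mttp and Mogat2), against 5.73% of genes, and after scaling 7, with Fabp1 added, against 7.61%. Between day 24 and day 14, Apoa1, Apoa4, Apob and Apoc3 fell, against 2.85% of genes, and the same 4 after scaling, against 4.37%. The lone day 24 library was assumed to vary like the other groups. Apoa4 then had log2 fold changes of -6.09 between day 42 and day 14 and -5.00 between day 24 and day 14.

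**Figure D3:**
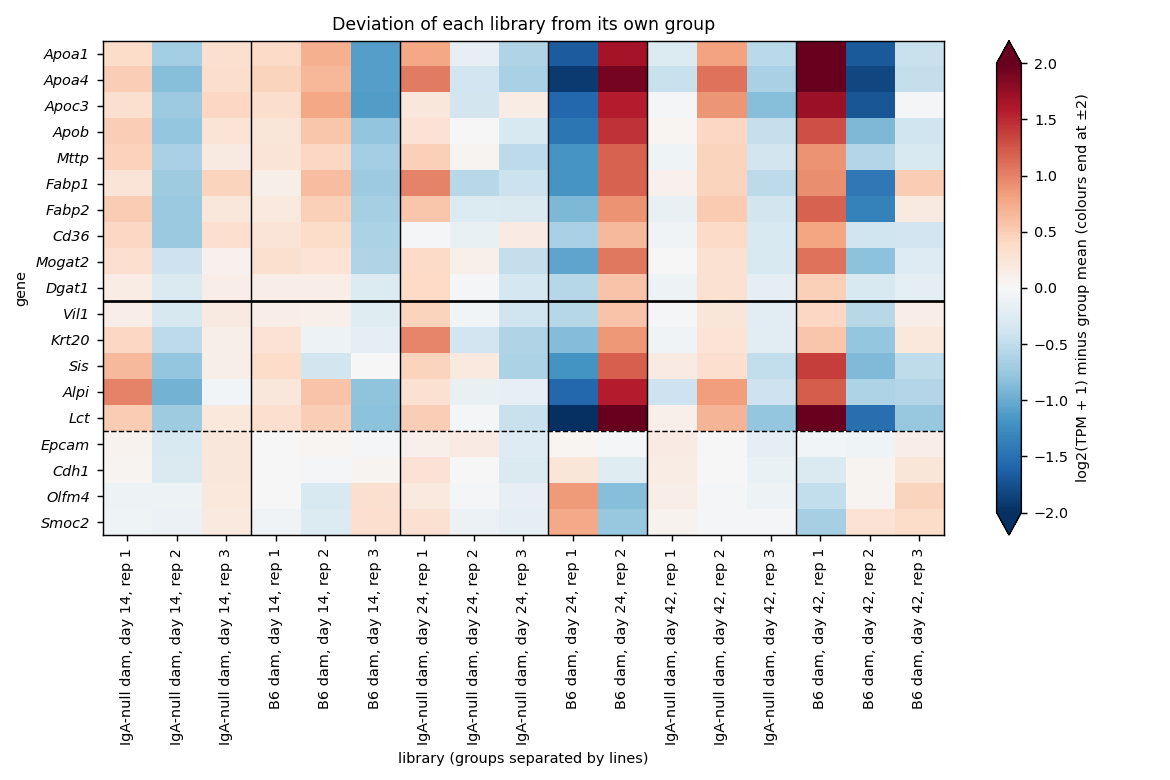
Deviation of each library (columns) from the mean of its own group on the log2(TPM + 1) scale. The 10 genes lie above the solid line, followed by 5 enterocyte markers (Vil1 to Lct). Below the dashed line are the enterocyte markers Epcam and Cdh1 and the stem markers Olfm4 and Smoc2. B6 dam day 24 replicate 2 and B6 dam day 42 replicate 1 are above their group for all 10 genes and for Vil1 to Lct. They are below it for Epcam, Cdh1, Olfm4 and Smoc2.

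Ratios between genes of the same library do not depend on the scaling of TPM. They were chosen after the values were seen and are given as a description. The ratio of Apoa4 to Apoa1 was 1.06 to 1.55 in the 6 libraries of day 14, 0.382 to 0.571 in the 5 of day 24 and 0.285 to 0.395 in the 6 of day 42. The day 14 libraries did not overlap the later ones, although the libraries of an age differed in the levels of both genes. At day 14 the ratio was 1.31, 1.06 and 1.22 in IgA-null-nursed pups and 1.55, 1.42 and 1.46 in B6-nursed pups. The dams did not overlap in that ratio at day 14. Nor did they in Apob per Mttp (0.867 to 1.00 in IgA-null-nursed and 1.38 to 1.64 in B6-nursed pups). The same held for Fabp1 per Fabp2 (2.50 to 3.43 and 1.77 to 2.08) and Apoc3 per Apoa1 (0.0369 to 0.0418 and 0.0578 to 0.0624). Dgat1, Apoc3 and Plin2 per Vil1 were also apart at day 14, and in the other ratios taken the dams overlapped at that age. At day 24, with 2 B6 libraries, Fabp1 per Fabp2 was apart (1.34 to 2.20 in IgA-null-nursed and 0.72 to 1.06 in B6-nursed pups). So was Dgat1 per Vil1 (0.1825 to 0.1922 and 0.1758 to 0.1791). At day 42 the dams overlapped in every ratio taken. The share of all pairs of genes that lie apart was not taken, so these are not read as a dam difference.

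Set against villin, Apoa4 ran from 8.36 to 32.7 at day 14, 0.666 to 4.31 at day 24 and 0.254 to 2.32 at day 42, a 129-fold range. Dgat1 stayed at 0.167 to 0.202, 0.176 to 0.192 and 0.154 to 0.226 at the same ages, a 1.47-fold range over 17 libraries. The ratio of Dgat1 to Vil1 was thus nearly level, also in the libraries that stood apart. Mogat2 per Vil1 was 0.215 to 0.319 at day 14 and 0.0886 to 0.194 at day 42, with no overlap. Fabp2 per Vil1 was 3.48 to 6.23 at day 14 and 1.47 to 4.93 at day 42, with overlap. Fabp1 per Fabp2 was 1.77 to 3.43 at day 14, 0.72 to 2.20 at day 24 and 0.85 to 1.27 at day 42.

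**Figure D4:**
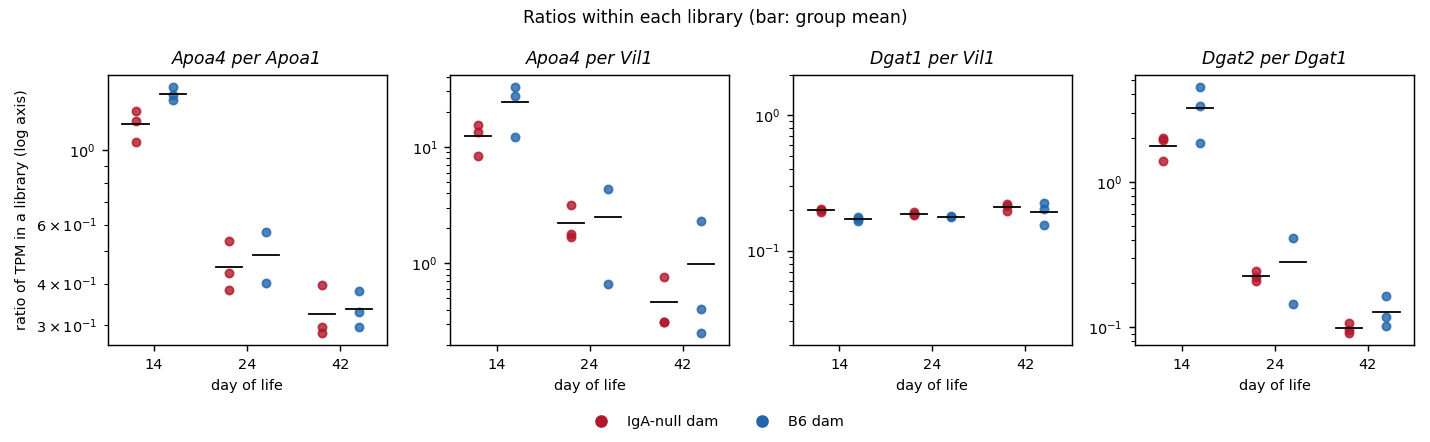
Ratios of TPM within each library (y axes, logarithmic) by day of life, in IgA-null-nursed pups at the left and the B6 dam at the right of each age and bars at group means. Apoa4 per Apoa1 is above 1 at day 14 and below 0.6 afterwards, Dgat1 per Vil1 lies between 0.154 and 0.226 in every library, and Dgat2 per Dgat1 is 1.39 to 4.51 at day 14 and 0.0913 to 0.164 at day 42.

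Of 79 further genes of fat handling, in 7 lists from brush-border uptake to the transcription factors of the route, 70 were tested. Between day 42 and day 14 in IgA-null-nursed pups, 1 rose (1.43%, against 1.77% of all genes) and 35 fell (50%, against 38.9%). After scaling 4 rose (5.71%, against 8.4%) and 9 fell (12.9%, against 8.09%). In B6-nursed pups 5 rose (7.14%, against 2.78%) and 14 fell (20%, against 6.33%), and after scaling 7 rose (10%, against 7.04%) and 12 fell (17.1%, against 6.6%).

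Between day 24 and day 14 in IgA-null-nursed pups, 0 of the 70 rose (against 0.863% of all genes) and 47 fell (67.1%, against 82.9%), so the share that fell was below that of all genes. After scaling 5 rose (7.14%, against 8.35%) and 4 fell (5.71%, against 8.28%). In B6-nursed pups 3 rose (4.29%, against 1.62%) and 11 fell (15.7%, against 6.99%), and after scaling 5 rose (7.14%, against 7.93%) and 11 fell (15.7%, against 5.91%). In the later step, between day 42 and day 24 in IgA-null-nursed pups, 21 rose (30%, against 48.5%) and 1, Cidec, fell (1.43%, against 0.863%). After scaling only Ffar1 passed, which rose (1.43%, against 1.45%). None passed between day 42 and day 24 in B6-nursed pups.

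Dgat2, the other enzyme that completes triglyceride, changed most among those named by the rule. It had 64.9, 32.7 and 61.7 TPM at day 14 in IgA-null-nursed pups and 80.1, 108 and 32.8 TPM in B6-nursed pups. At day 24 it had 7.15, 5.72 and 3.90 TPM in IgA-null-nursed pups and 3.30 and 21.4 TPM in B6-nursed pups. On day 42 it had 1.93, 2.46 and 2.01 TPM in IgA-null-nursed pups and 6.35, 2.25 and 2.84 TPM in B6-nursed pups. All later libraries lay below all day 14 libraries. Between day 42 and day 14 it fell in IgA-null-nursed pups (-4.05, scaled -3.42, adjusted p = 0.0027, limma) and in B6-nursed pups (-3.89, scaled -3.64, adjusted p = 0.0014, limma). Dgat2 exceeded Dgat1 in every day 14 library, by 1.39 to 4.51 times, and was below it in every later one, at 0.144 to 0.413 of its level at day 24 and 0.0913 to 0.164 at day 42.

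Plin2, which coats lipid droplets, averaged 6.34 ± 0.88 TPM at day 42 and 23.9 ± 7.01 TPM at day 14 in IgA-null-nursed pups (SD, n = 3 each), and 7.38 ± 1.56 TPM and 32.2 ± 10.2 TPM in B6-nursed pups. Chpt1, a choline phosphotransferase of phospholipid synthesis, averaged 6.32 ± 0.85 TPM at day 42 and 26.3 ± 7.21 TPM at day 14 in IgA-null-nursed pups. Plagl2, a zinc finger transcription factor that mice need to absorb fat, averaged 8.18 ± 0.41 TPM at day 42 and 35.5 ± 6.69 TPM at day 14 in IgA-null-nursed pups, and 7.67 ± 1.67 TPM and 33.9 ± 7.32 TPM in B6-nursed pups. Plin2, Chpt1, Plagl2 and Dgat2 fell between these ages with both dams and on both scales. Between day 24 and day 14, Plin2, Chpt1, Plagl2 and Acsl3, an enzyme that activates long-chain fatty acids, fell with both dams and on both scales. Acsl3 then averaged 2.78 ± 0.47 TPM at day 24 and 15.8 ± 2.81 TPM at day 14 in IgA-null-nursed pups.

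Between the dams at day 14, 8 of the 70 rose in IgA-null-nursed pups (11.4%, against 8.32% of all genes) and none fell (against 0.358%). After scaling none rose (against 1.81%) and 2, Acsl3 and Acsl1, fell (2.86%, against 1.16%). Ppard, a fatty acid-sensing nuclear receptor, averaged 13.8 ± 1.28 TPM in IgA-null-nursed pups and 6.70 ± 1.5 TPM in B6-nursed pups (scaled adjusted p = 0.135, limma). Ffar4, a long-chain fatty acid receptor, Pparg, a nuclear receptor, and Mlxipl, a carbohydrate-sensing transcription factor, were the others with the smallest p. None of the 70 passed between the dams at day 24 or day 42.

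By correlation over the 17 libraries, genes most like the mean of the 10 were Myo15b (r = 0.98), Clec2e (0.98), Gsdmd (0.97) and Pcyt1a (0.97). Those most like Apoa4 were Creb3l3 (r = 0.98), a membrane-bound transcription factor, Lct (0.98), Leap2 (0.97) and Cdr2 (0.97). After scaling, Clec2e stayed among the first group and Lct and Cdr2 among the second. All points share libraries, ages and the libraries that stood apart, so these values are a description.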

How the data were processed

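The authors deposited 1 table of TPM values for 17 libraries, whose columns each sum to 1000000. Per the labels' protocols, sorted cells were frozen and thawed together for RNA extraction with the SMART-seq v4 kit and Nextera XT libraries. Bowtie2, Subread, DESeq2 and the mm10 build are named, without versions, per the submitters' processing notes. Because TPM was taken over all genes, abundant short and mitochondrial RNAs set the level of the others.

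TPM times the GENCODE M21 exon length gave whole reads (within 0.01 reads or 1e-04 of the value) for 93.0% to 93.9% of values, and so an estimate of depth. Of the 10 genes, 9 were whole in all 17 libraries and Dgat1 in 6. No molecular identifiers were used.

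Testing was limited to genes whose TPM reached 1 in 2 or more libraries, with limma 3.58.1 (R 4.3.3, intensity trend) on log2(TPM + 1), a scale that understates changes of low genes. There was 1 fit over all 17 libraries, with Benjamini-Hochberg adjustment over 15066 genes and a threshold of 0.05. The groups are dam by day, and the comparisons are dams at each age, ages within each dam, and a moderated F test of dam effects that differ between ages. Scaled values were divided by median-of-ratios size factors. The alternatives tried were a pseudocount of 0.1 or 5, filtering at TPM 5 or not at all, scaling, removal of mitochondrial and the 50 highest genes (4 of the 10 genes are among them and were kept), limma-voom on estimated reads, only the compared groups, a replicate block and leaving out each library. Leaving out 2 B6 libraries together, and each library after scaling, were added after seeing the data. The test was run on simulated data first. Python 3.11.15, numpy 2.4.6, pandas 2.3.3 and matplotlib 3.10.9 were used.

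The members and lists were chosen with earlier results of these data known. Named genes were the 10, up to 4 called genes with the smallest p from the other lists in each comparison, and the 5 genes with the highest Pearson r to the mean of the 10 or to Apoa4 (mean TPM of at least 10). Of these last, 1 in each set is not reported here. Genes named to complete a count of 5 or fewer were chosen after their values were seen.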

Additional observations from a re-analysis of the deposited data

How the results depend on the processing

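Counts are of the 10 genes called, and leaving out each library covers those of the groups compared. Shares of all genes called are not given here, so a higher count is not read as a stronger result. In the main fit 82.9% of all genes fell between day 24 and day 14 in IgA-null-nursed pups. Between day 24 and day 14 in IgA-null-nursed pups the count was 4, and 1 with no filter, scaling, removal of mitochondrial and the 50 highest genes, limma-voom, or 2 B6 libraries left out after scaling, 8 with only the compared groups, 8 without the 2 B6 libraries, and 1 to 6 without each library (0 scaled). Dgat1 there was -0.24 as deposited, and 1.20 after scaling, 1.04 without mitochondrial and the 50 highest genes, 1.22 by limma-voom and 1.20 with the 2 libraries left out after scaling. Without each library, on either scale, Apob was -1.87 to 0.22 and Cd36 -1.28 to 0.11, positive only after scaling. Between day 42 and day 24 in IgA-null-nursed pups it was 4, and 1 with a pseudocount of 5, no filter, scaling, that removal or limma-voom, 9 with the 2 libraries left out after scaling, and 1 to 3 without each library (0 scaled). Between day 42 and day 14 in IgA-null-nursed pups it was 9, and 3 with scaling or that removal, 2 by limma-voom, and 5 to 9 without each library (0 to 2 scaled). In B6-nursed pups, day 24 against day 14 gave 0, and 1 with a TPM of at least 5, 4 without the 2 libraries on either scale, and 0 to 3 without each library on either scale. Day 42 against day 14 gave 2, and 4 with a TPM of at least 5, 6 and 7 without the 2 libraries as deposited and scaled, and 1 to 4 without each library (0 to 4 scaled). Between the dams at day 24 it was 0, and 1 without the 2 libraries after scaling, where Dgat1 was 0.98. For a dam effect that differs between ages it was 0, and 0 to 1 without each library. The cause was not tested. The labels do not say whether equal replicate numbers mark a shared litter or day, and the libraries were treated as unpaired. Of 24 correlations of same-numbered deviations 4 were over 0.1 (range -0.65 to 0.26). With 2 or 3 libraries per group these cannot settle whether the numbers pair the libraries. With the number as a block 17 of 19 calls passed and each count stayed within 1.5 times.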

Other observations

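The 10 genes together held 0.682% (IgA-null-nursed) and 0.766% (B6-nursed) of all TPM at day 14, 0.254% and 0.402% at day 24, and 0.0647% and 0.189% at day 42. Dgat1 per Mogat2 was 0.539 to 0.791 at day 14, 0.78 to 1.56 at day 24 and 1.04 to 2.42 at day 42. Apob per Mttp was 0.867 to 1.64, 0.505 to 0.864 and 0.575 to 0.958 at these ages. Apoc3 per Apoa1 was 0.0369 to 0.0624, 0.00933 to 0.0231 and 0.0133 to 0.0407. These ratios were chosen after the values were seen and were not tested.

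Limits are the 2 or 3 libraries per group, the single sort of the whole epithelium, and TPM that carry the level of a few abundant RNAs. RNA levels were measured here, and fat uptake and chylomicron output were not.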
